A study of Mus musculus with 18 samples.

Results

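The 10 genes described here are imprinted genes measured in the epididymal fat of adult mice: H19, Igf2, Igf2r, Grb10, Plagl1, Peg3, Cdkn1c, Ndn, Sgce and Nnat. They were taken as the rows of the count table whose Ensembl identifier carries 1 of these symbols in the GENCODE M21 annotation, and they make up 10 of the 16452 genes in the table. All 10 had a row, so none was lost to the filter that the authors had applied to low values.

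RNA was sequenced from whole epididymal white adipose tissue (eWAT) of wild-type male C57BL/6 mice of a generation that the labels call Fm. These mice had been sired, by the labels, from zygotes microinjected with 1 of 3 agents, namely the negative control, miR-let-7d or miR-let-7e, and the treatment names place IVF before each agent. All groups shared the diet, which was chow up to week 6, then an LFD (as labelled, not spelled out) until the mice were 15 weeks old, whereas the age label gives 24 weeks. The series title asks about paternal mitochondrial dysfunction and the inheritance of metabolic decline. The 17 libraries analysed were 5 control, 6 let-7d and 6 let-7e libraries, numbered as in the labels; control 5 is not analysed here. How many sires stand behind a group is not given in the sources used here. Nor do the labels say that replicates are separate animals, so each p-value measures only the spread between these samples.

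Genomic imprinting leaves a gene active mainly from the copy inherited from 1 parent, according to DNA methylation laid down in the germ line. Many imprinted genes regulate growth: Igf2 encodes insulin-like growth factor 2, Igf2r the receptor that carries it to lysosomes, Grb10 an adaptor that restrains insulin and IGF receptor signalling, Cdkn1c a cyclin-dependent kinase inhibitor, and H19 a noncoding RNA that shares enhancers with Igf2. H19, Cdkn1c, Grb10 (in most tissues outside the brain) and Igf2r are expressed from the maternal copy in the mouse, and Igf2, Peg3, Plagl1, Ndn, Sgce and Nnat from the paternal copy. RNA counts do not show which parental copy a read came from. In fat, Nnat, Peg3, Mest and related genes are known for levels that vary with the growth of the depot.

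Levels are given as CPM, counts-per-million, the read count of a gene relative to its library's total after scaling by trimmed mean of M-values (TMM). Total counts were 12717365 to 28972306 per library. The adipocyte marker list (8 of 8 genes measured, among them Adipoq and Plin1) summed to between 19162 and 43592 CPM, and so the tissue label held in every library. In 4 libraries transcripts of neighbouring organs or epithelium stood high. Control 3 had a sum of 17465 CPM for the epididymis and vas deferens list and of 13358 CPM for smooth muscle, and control 6 had 1066 CPM of spermatid transcripts. Epithelial transcripts summed to 538 CPM in let-7d 1 and to 238 CPM in let-7d 5. Library identifiers divided the libraries into an early series, which held replicates 1 and 2 of both let-7 groups and no control, and a late one with the other 13, and the series was a term of the fit unless stated otherwise.

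The injected microRNAs are shown first because a reader would want to know which of the 10 transcripts carry letters that pair with their seed. The mature forms in RefSeq (GRCm38.p6), with the seed (bases 2 to 8) in capitals, are as follows.
let-7d-5p, chr13:48536078-48536099, minus strand: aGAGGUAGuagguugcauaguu
let-7e-5p, chr17:17830366-17830387, plus strand: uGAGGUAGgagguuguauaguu
Both share the seed GAGGUAG, whose reverse complement in DNA letters is CTACCTC. That motif was searched on the sense strand of the longest GENCODE M21 transcript of each gene. It occurred in 23.7% of the 16432 genes searched, and in 4 of the 10 imprinted genes. These shares are not matched for length: the median transcript searched had 3121 bases, and those of the 4 genes had 4722 to 8887.
Igf2, 5' UTR, transcript positions 237 to 243: tcctctatCTACCTCaacacccc
Igf2, coding sequence, positions 1416 to 1422: ggacgtgtCTACCTCtcaggccg
Igf2r, coding sequence, positions 2537 to 2543: aggaaataCTACCTCaatgtgtg
Igf2r, 3' UTR, positions 8250 to 8256: tccgtgccCTACCTCatctctgt
Peg3, 3' UTR, positions 5696 to 5702: tctgtcccCTACCTCttagatag
Plagl1, coding sequence, positions 1790 to 1796: tcctgttcCTACCTCatatgccc
The capitals mark the seed match, and positions count from 1 at the 5' end of the transcript. The longest transcripts of H19, Cdkn1c, Grb10, Ndn, Sgce and Nnat do not contain these letters. A match is a description of the sequence only, and no binding was measured.

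Levels of the 10 genes spread over more than 3 orders of magnitude. Mean CPM per kilobase of exon over the 17 libraries was 733 for Nnat, 14.4 for Cdkn1c, 12.2 for Ndn, 9.58 for Igf2r, 9.30 for Plagl1, 8.50 for Sgce, 6.76 for Grb10, 4.07 for Peg3, 0.211 for H19 and 0.101 for Igf2. Nnat lay above Cdkn1c in 17 of 17 libraries and Peg3 above H19 in 17 of 17, so the top of this order and the step down to H19 and Igf2 held in each library. Other neighbours changed places: H19 exceeded Igf2 in 12 of 17 libraries, Cdkn1c exceeded Ndn in 11, Ndn exceeded Igf2r in 12, Igf2r exceeded Plagl1 in 8 and Plagl1 exceeded Sgce in 10. Dividing by the longest transcript in place of all exon bases moved Sgce to rank 2 and Igf2r to rank 7, while Nnat stayed first and Peg3, H19 and Igf2 stayed last.

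Across all libraries the 8 imprinted genes that averaged 5 CPM or more fell into steady and variable ones. The coefficient of variation (CV, the SD as a percentage of the mean) was 12.4% for Igf2r and 12.9% for Sgce, and the highest library of each held 1.51 times the lowest. It was 56.9% for Peg3 and 48.4% for Nnat, which is more than for 94.3% and 92.7% of the 11237 genes that averaged 5 CPM or more (median CV 17.2%). Plagl1 (30.0%), Cdkn1c (29.6%), Grb10 (27.2%) and Ndn (26.7%) lay in between. H19 and Igf2 averaged less than 5 CPM and were not set against these genes. Their CVs were higher than that of Peg3, but rest on 1 to 40 and 2 to 22 reads per library. The Nnat range was 49.5-fold and the Peg3 range 9.57-fold. Without control 1 the Nnat range was 5.27-fold and its CV 40.5%, and without control 2 the Peg3 range was 6.35-fold and its CV 48.0%. Because whole tissue was sequenced, fewer cells of a type and less RNA per cell cannot be told apart.

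**Figure D1:**
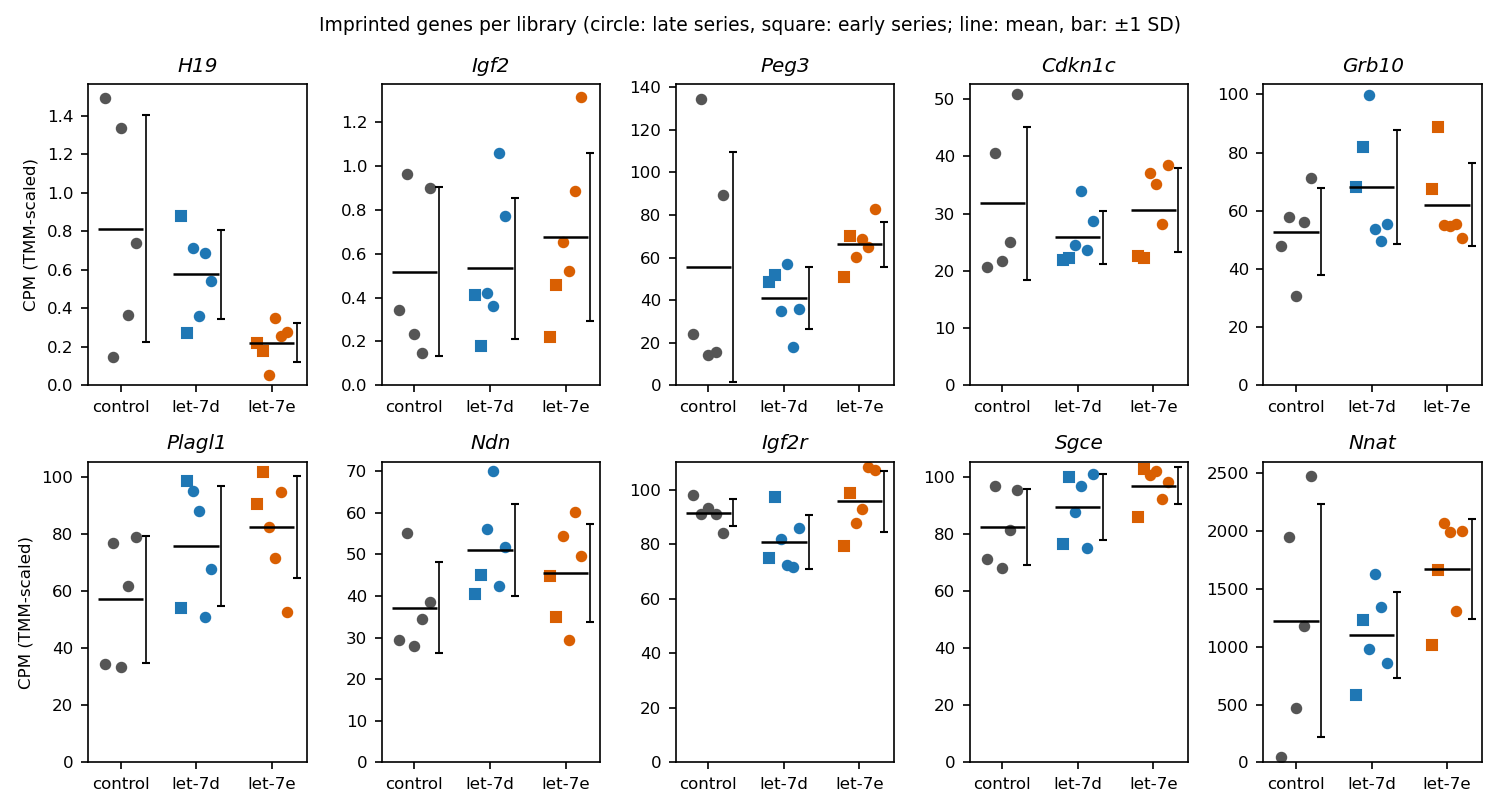
Level of each imprinted gene (CPM, TMM-scaled, linear axis from 0) in the 17 libraries, 1 point per library, with the group mean as a line and 1 SD above and below it as a bar. The Peg3 and Nnat points spread widest among the controls, the Igf2r and Sgce points lie close together, and the 6 let-7e points of H19 all lie at or below 0.35 CPM.

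No gene of the 16452 passed an adjusted p of 0.05 (edgeR quasi-likelihood test, Benjamini-Hochberg over all genes) in any of the 3 comparisons, which is 0% called each time. At an unadjusted p under 0.05 the share was 10.2% of genes for let-7d against control, 10.5% for let-7e against control and 6.67% for let-7e against let-7d. None of the 10 imprinted genes had groups that failed to overlap, beside 0.517%, 0.632% and 0.237% of all genes. For let-7d against control, 5 of the 10 had a higher and 5 a lower estimate, with a median log2 fold change of 0.06 beside -0.04 for all genes. This split moved with the setting: 9 were higher with limma-voom (median 0.30) and 4 with no series term (median -0.08). With the replicate number as a block, without control 2 or without control 6, 7 were higher. For let-7e against control 9 were higher and 1 lower (median 0.23, all genes -0.04), but 8 were higher with no series term, where Cdkn1c changed side, and 6 without control 3. For let-7e against let-7d 7 were higher and 3 lower (median 0.17, all genes -0.01). Of all genes, 42.5%, 41.9% and 46.9% had a higher estimate in the order of these comparisons. At an unadjusted p under 0.05, the count of imprinted genes was 1, 2 and 2 of 10 in the order of these comparisons. The comparisons share libraries and are not independent of one another. With DESeq2, 10, 15 and 14 genes passed across the table, none of them among the 10; with limma-voom none passed.

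**Figure D2:**
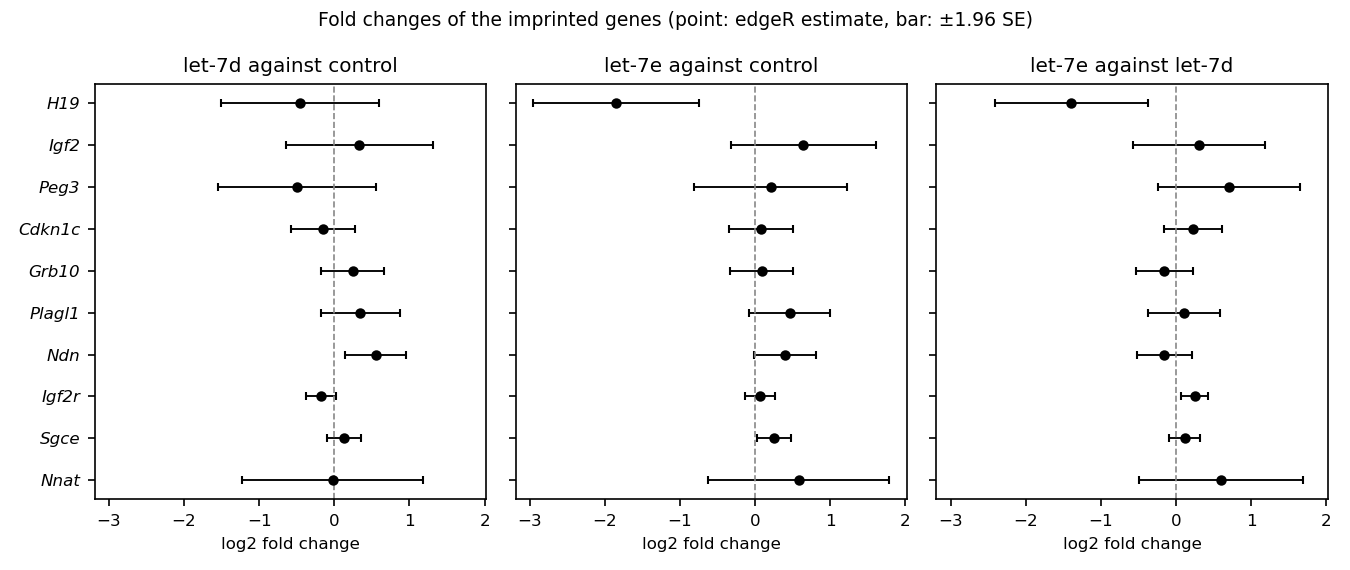
Log2 fold change of each imprinted gene in the 3 comparisons, with the edgeR estimate as a point and its 95% interval as a bar. The intervals of H19 lie below 0 in both comparisons of let-7e, that of Ndn lies above 0 for let-7d against control, and most of the others cross 0.

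H19 (7:142575529-142578143, minus strand, GRCm38) is a noncoding RNA that is abundant in fetal tissue and has been described to bind let-7. In these libraries it was near the limit of counting. It stood at 1.49, 0.14, 1.33, 0.36 and 0.74 CPM in controls 1, 2, 3, 4 and 6, which rests on 26, 3, 40, 5 and 18 reads. The let-7d libraries ran from 0.27 to 0.88 CPM (median 0.61), and the let-7e libraries from 0.05 (1 read, let-7e 3) to 0.35 CPM (median 0.24). Controls 1 and 3 lay above every other library, and control 2 lay within the let-7e range, so the groups overlapped. The log2 fold change of let-7e against control was -1.85 (SE 0.56, unadjusted p = 0.0047, adjusted p = 0.356, edgeR). Against let-7d it was -1.39 (SE 0.52, unadjusted p = 0.0169, adjusted p = 0.70), and let-7d against control gave -0.46 (SE 0.53, adjusted p = 0.784), which was -0.15 without control 1 and -0.73 without control 2. Without the 4 libraries with transcripts of neighbouring organs or epithelium the let-7e estimate was -1.36 (unadjusted p = 0.0631). Among the markers of other cells, the epithelial sum was 4.81 CPM in control 1, the library highest in H19, while Pdzk1ip1, 1 of the 3 genes most like H19 over libraries, was at 28.6 CPM there, at 20.6 CPM in control 3 and at 32.9 CPM in let-7d 1. The part of other cells in the H19 result was not tested. H19 hosts Mir675 within its exon, and their reads cannot be told apart.

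Igf2 (7:142650766-142666816, minus strand), the growth factor beside H19, had 2 to 22 reads in a control and did not exceed 1.31 CPM anywhere. Controls 1, 2, 3, 4 and 6 held 0.34, 0.96, 0.23, 0.15 and 0.90 CPM. Medians were 0.41 CPM in let-7d (range 0.18 to 1.06) and 0.59 CPM in let-7e (range 0.22 to 1.31), and most of these libraries lay inside the range of the controls. The log2 fold change was 0.34 (SE 0.50) for let-7d and 0.64 (SE 0.49) for let-7e against control, with adjusted p = 0.834 and 0.664 by edgeR. The first ran from 0.08 without let-7d 5 to 0.67 without control 2, and the second from 0.42 without let-7e 6 to 0.97 without control 2. The 95% interval for let-7e, -0.32 to 1.60, includes both 0 and a 2-fold difference, so these libraries do not tell the 2 apart. Igf2 shares 3596 exon bases with the gene model Gm49394 on the same strand and 98 with Igf2os on the other, and counting reads cannot separate them.

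Igf2r (17:12682406-12769664, minus strand), the receptor that clears Igf2, was the steadiest of the 10. Its control values were 98.1, 91.2, 93.1, 90.9 and 84.2 CPM. The let-7d libraries ran from 71.8 to 97.3 CPM (median 78.3) and the let-7e libraries from 79.4 to 108 CPM (median 95.8). Most let-7d libraries lay below all controls, but let-7d 2 and let-7d 6 lay among them. The estimate for let-7e against let-7d was 0.25 (SE 0.09, unadjusted p = 0.0163, adjusted p = 0.70, edgeR), and within the late libraries alone 0.35 (unadjusted p = 0.00261, adjusted p = 0.885). Against control let-7d stood at -0.18 (SE 0.10, adjusted p = 0.552) and let-7e at 0.07 (SE 0.10, adjusted p = 0.857). Airn, the paternally expressed antisense RNA of this locus, did not exceed 4.399 CPM in any library and shares no exon base with Igf2r; whether the counting used strand is not given in the sources used here.

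Grb10 (11:11930508-12038683, minus strand), the adaptor that restrains insulin receptor signalling, was at 47.9, 57.9, 30.6, 56.1 and 71.3 CPM in the controls. In let-7d it ran from 49.7 to 99.96 CPM (median 61.7) and in let-7e from 50.5 to 88.8 CPM (median 55.3). Control 3 was the lowest library and let-7d 3 the highest. In let-7e the early libraries held 67.5 and 88.8 CPM and the late ones 50.5 to 55.5 CPM, so the 2 series did not overlap there. In let-7d they did, and the share of all genes without such overlap was not counted. Estimates against control were 0.24 (SE 0.21) for let-7d and 0.09 (SE 0.22) for let-7e, adjusted p = 0.696 and 0.919 (edgeR). The let-7d estimate was -0.0024 without let-7d 3, and the let-7e estimate -0.04 without control 3.

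Plagl1 (10:13060504-13131694, plus strand), a zinc finger transcription factor that regulates other imprinted genes, was at 34.5, 76.9, 33.5, 61.8 and 79.1 CPM in the controls. Its median was 78.0 CPM in let-7d (range 50.9 to 98.8) and 86.7 CPM in let-7e (range 52.7 to 102). Controls 1 and 3 lay below every let-7 library, and the other 3 controls lay inside the let-7 range. Log2 fold changes against control were 0.35 (SE 0.27, adjusted p = 0.661) and 0.46 (SE 0.27, adjusted p = 0.562) by edgeR.

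Peg3 (7:6703892-6730431, minus strand), a large zinc finger protein, had the control values 24.2, 135, 14.1, 15.6 and 89.2 CPM. The let-7d libraries ran from 17.7 to 57.0 CPM (median 42.3) and the let-7e libraries from 51.1 to 82.6 CPM (median 66.9). The 5 controls thus lay on both sides of all let-7e libraries, 3 below and 2 above. The means were 55.5 ± 54.1 CPM in control (SD, n = 5), 41.0 ± 14.4 in let-7d (SD, n = 6) and 66.3 ± 10.6 in let-7e (SD, n = 6), which is a CV of 97.3%, 35.1% and 15.9%. Fold changes rest on single controls: let-7d against control was -0.50 (SE 0.54, adjusted p = 0.762, edgeR) but 0.13 without control 2. The let-7e estimate of 0.21 (SE 0.52, adjusted p = 0.92) became 0.84 without control 2 and -0.03 without control 3. Summed lymphocyte markers were 497 and 405 CPM in controls 2 and 6, and 86.4, 121 and 97.9 CPM in controls 1, 3 and 4; among the let-7d libraries the highest lymphocyte sum, 1236 CPM in let-7d 6, went with 36.0 CPM of Peg3. Most of each such sum was 1 gene: Ighm averaged 494 CPM over the libraries, and no other gene of the list more than 2.87 CPM. Lymphocytes were not alone in dividing the controls so. In controls 2 and 6, macrophage markers summed to 324 and 313 CPM, endothelial ones to 1544 and 1344 and stromal progenitor ones to 2924 and 2487. In controls 1, 3 and 4 these sums did not exceed 263, 1264 and 2255 CPM. Sums for adipocytes, mesothelium and smooth muscle did not divide the controls in this way. The part of lymphocytes or of other cells in the Peg3 result was not tested.

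Cdkn1c (7:143458339-143461050, minus strand), which halts the cell cycle, was likewise highest in controls 6 and 2. The control values were 20.7, 40.5, 21.7, 25.0 and 50.9 CPM, with 21.8 to 34.0 CPM in let-7d (median 24.1) and 22.3 to 38.4 CPM in let-7e (median 31.7). Both let-7 groups split by series: the early libraries held 21.8 to 22.2 CPM in let-7d and 22.3 to 22.5 CPM in let-7e. All late libraries of their group lay above (from 23.7 and 28.2 CPM). Igf2 split in let-7e too, at 0.22 to 0.46 CPM in the early and 0.52 to 1.31 CPM in the late libraries. Each split sets 2 early libraries against 4 late ones, and the share of all genes that split so was not counted. Estimates against control were -0.15 (SE 0.22, adjusted p = 0.832) and 0.08 (SE 0.22, adjusted p = 0.931) by edgeR. The first was 0.09 without control 6, and the second -0.03 without control 1. Of the Cdkn1c exons, 625 bases are shared with the antisense gene model Gm44732.

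Ndn (7:62346569-62350262, plus strand) encodes necdin, a growth suppressor of the MAGE family that restrains adipocyte differentiation. It was at 29.5, 55.3, 27.9, 34.5 and 38.6 CPM in the controls and from 40.4 to 70.1 CPM in let-7d (median 48.4). All let-7d libraries lay above 4 of the 5 controls, and control 2 lay among the highest of them. The let-7e libraries ran from 29.3 to 60.3 CPM (median 47.1). The estimate for let-7d against control was 0.55 (SE 0.21, 95% interval 0.15 to 0.96, unadjusted p = 0.0171, adjusted p = 0.461, edgeR), and it stayed between 0.47 and 0.74 with each library left out. For let-7e it was 0.40 (SE 0.21, adjusted p = 0.514). The stromal progenitor list (8 of 8 genes measured, among them Pdgfra and Dpp4) summed to 1983 to 2924 CPM in control, 2310 to 3807 in let-7d and 2247 to 3430 in let-7e, and the lymphocyte list (6 of 6) to 86.4 to 497, 154 to 1236 and 197 to 768 CPM. In the stromal list Col3a1, Dcn and Col1a1 averaged 1270, 677 and 401 CPM, and Pdgfra and Dpp4 44.4 and 25.4 CPM. Their estimates for let-7d against control were 0.43, -0.03, 0.34, -0.03 and 0.03. Those of Cd34, Lum and Pi16 were 0.40, 0.25 and 0.14, so the genes of this list did not differ alike. The lymphocyte sum was mostly Ighm (mean 494 CPM), with an estimate of 1.49 for let-7d against control. Cd3e, Cd3g, Trac, Cd79a and Ms4a1 had estimates from -1.48 to -0.23 there, so the sum does not describe lymphocytes as a whole. The part of these cells in the Ndn result was not tested.

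Sgce (6:4674350-4747207, minus strand), a sarcoglycan of the cell membrane, held 71.2, 96.8, 68.1, 81.4 and 95.6 CPM in the controls, 75.3 to 101 CPM in let-7d (median 92.4) and 86.2 to 103 CPM in let-7e (median 99.6). Controls 2 and 6 lay within the let-7e range and the other 3 below it. The let-7e estimate against control was 0.25 (SE 0.12, unadjusted p = 0.0487, adjusted p = 0.471, edgeR), and let-7d gave 0.13 (SE 0.12, adjusted p = 0.697). Peg10, a retrotransposon-derived gene that starts 98 bases away and is expressed from the same parental copy, was far lower, at 3.27 to 16.5 CPM, and had fitted estimates of -0.11 against control in both groups; its group means, which do not account for the series, were 8.93 CPM in control, 9.37 in let-7d and 9.13 in let-7e.

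Nnat (2:157560078-157562522, plus strand) encodes neuronatin, a small membrane protein of the endoplasmic reticulum. It stood at 50.1, 1949, 471, 1182 and 2478 CPM in controls 1, 2, 3, 4 and 6. In let-7d it ran from 584 to 1626 CPM (median 1104) and in let-7e from 1014 to 2072 CPM (median 1827). Control 1 lay far below the next library, which was control 3, and controls 2 and 6 were among the highest. The mean was 1226 ± 1006 CPM in control (SD, n = 5), 1103 ± 371 in let-7d (SD, n = 6) and 1674 ± 432 in let-7e (SD, n = 6). Log2 fold changes were -0.02 (SE 0.61, adjusted p = 0.993) for let-7d and 0.58 (SE 0.61, adjusted p = 0.779) for let-7e against control (edgeR). The let-7d value ranged from -0.32 without control 1 to 0.41 without control 6, and the let-7e value from 0.28 to 1.01 without the same libraries. Nnat lies inside an intron of Blcap on the other strand with no shared exon base; Blcap, itself imprinted in brain, was at 105 to 208 CPM.

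Several of the 10 genes varied together over libraries. All 45 pairs were correlated on log2 CPM over the 17 libraries, with a two-sided permutation test of 100000 resamples and Benjamini-Hochberg adjustment over the pairs. Libraries were permuted freely, with no term for group or series. A correlation can therefore hold differences between groups or series as well as variation within them, and no within-group value was computed. By Spearman's rho 7 pairs passed an adjusted p of 0.05, of which 6 were positive; rho was positive in 31 of the 45. Correlations of this size were common in these libraries: over all pairs of the 13342 named genes that averaged 1 CPM or more, 3.99% had a rho as far from 0 as the weakest of the 7 (0.64), and 49.6% were positive. The imprinted pairs were not tested against other genes.

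The strongest were those of Nnat with Cdkn1c and with Peg3. Cdkn1c and Nnat had rho = 0.81 (permutation p = 0.00015, adjusted p = 0.00472) and r = 0.62 (permutation p = 0.00757, adjusted p = 0.0341), and r = 0.59 without the 2 libraries farthest from the median of Cdkn1c. Peg3 and Nnat had rho = 0.80 (permutation p = 0.00021, adjusted p = 0.00472) and r = 0.54 (permutation p = 0.0212, adjusted p = 0.0597), and r = 0.59 without the 2 farthest libraries. Control 1, with the lowest Nnat of all, sat far below the line of the other libraries. Within the 13 late libraries rho was 0.87 (permutation p = 0.00024, adjusted p = 0.0054) for Cdkn1c with Nnat and 0.76 (permutation p = 0.00388, adjusted p = 0.0436) for Peg3 with Nnat. The 4 early libraries are too few for a value of their own.

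Grb10 and Plagl1 formed the other close pair, with rho = 0.75 (permutation p = 0.00078, adjusted p = 0.0117) and r = 0.75 (permutation p = 0.00042, adjusted p = 0.00622), and r = 0.62 without the 2 farthest libraries. In the late libraries rho was 0.72 (permutation p = 0.00684, adjusted p = 0.0532). By rho neither gene followed Nnat, at 0.10 for Grb10 and 0.29 for Plagl1. By r Plagl1 with Nnat passed (r = 0.65, permutation p = 0.00556, adjusted p = 0.0278), but r was 0.15 without the 2 farthest libraries. Grb10 with Nnat had r = 0.29 (permutation p = 0.235, adjusted p = 0.364). Plagl1 with Sgce also passed by r (0.77, adjusted p = 0.00622) and not by rho (0.55, adjusted p = 0.0725).

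Peg3 with Cdkn1c (rho 0.69, r 0.66, permutation p = 0.00302 and 0.00458, adjusted p = 0.034 and 0.0258), Peg3 with Sgce (rho 0.66, r 0.77, permutation p = 0.00474 and 0.0005, adjusted p = 0.0427 and 0.00622) and Igf2 with Cdkn1c (rho 0.65, r 0.62, permutation p = 0.00574 and 0.009, adjusted p = 0.043 and 0.0368) also passed. Without the 2 farthest libraries r was 0.67, 0.68 and 0.59. H19 ran against the others, with 9 of 9 values of rho below 0. Its pair with Sgce passed (rho -0.64, r -0.74, permutation p = 0.00727 and 0.0006, adjusted p = 0.0467 and 0.00622), with r = -0.55 without the 2 farthest libraries. In the late libraries these 4 pairs had rho of 0.90, 0.65, 0.56 and -0.64, and only the first passed (adjusted p = 0.0036; the others 0.103, 0.154 and 0.103). Plagl1 with Ndn did not pass by rho over all libraries (rho 0.49, permutation p = 0.0464, adjusted p = 0.131). Its r of 0.58 did (permutation p = 0.0138, adjusted p = 0.0415), but was 0.27 without the 2 farthest libraries. In the late libraries its rho passed (0.79, permutation p = 0.00215, adjusted p = 0.0322). In all, 4 pairs of 45 passed by rho in the late libraries (1.53% of all gene pairs were as far from 0 as the weakest of them, 0.76). Igf2r passed in no pair over all libraries, its rho lying between -0.25 and 0.29.

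Without the 4 libraries with transcripts of neighbouring organs or epithelium, 1 pair of 45 passed by rho, namely Peg3 with Nnat (rho 0.82, permutation p = 0.00098, adjusted p = 0.0441, n = 13). Over all gene pairs, 0.727% were as far from 0. Grb10 with Plagl1 (rho 0.77, adjusted p = 0.07), Igf2 with Cdkn1c (rho 0.73, adjusted p = 0.0754) and Cdkn1c with Nnat (rho 0.70, adjusted p = 0.0754) kept their direction but did not pass. H19 with Sgce was at -0.37 (adjusted p = 0.531), and Peg3 with Cdkn1c at 0.60 (adjusted p = 0.178) and with Sgce at 0.57 (adjusted p = 0.239).

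**Figure D3:**
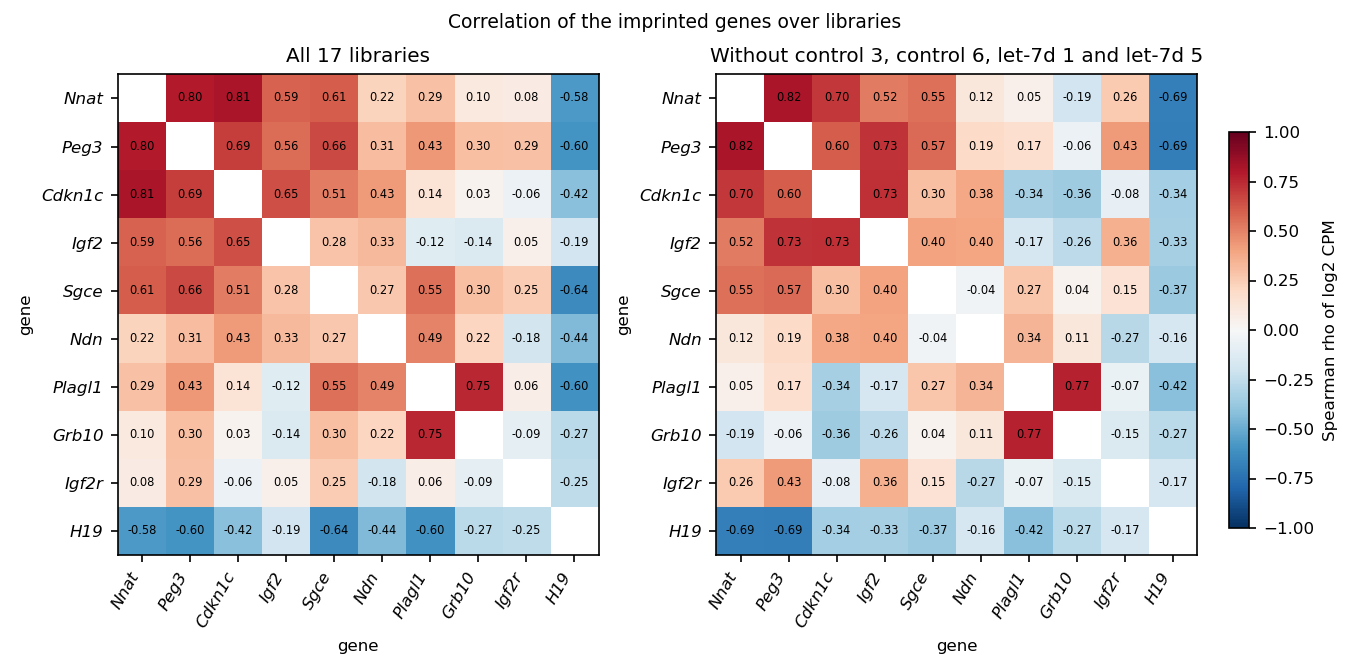
Spearman correlation of each pair of imprinted genes on log2 CPM, over 17 libraries (left) and over the 13 without control 3, control 6, let-7d 1 and let-7d 5 (right); red is positive and blue negative. Nnat, Peg3, Cdkn1c, Igf2 and Sgce form a positive block at the upper left. Grb10 with Plagl1 is another close pair (0.75 and 0.77), and the H19 row is negative in both.

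The promoters of these pairs are printed to show their CG letters, where DNA methylation can occur. No methylation was measured here, and whether these stretches are the regions that control imprinting was not examined. RefSeq (GRCm38.p6) gave a promoter for 7 of the 10 genes. The 250 bases before the start site are shown with each CG in capitals, and the count of CG reads the same on both strands.
Peg3, chr7:6730420-6730669, minus strand: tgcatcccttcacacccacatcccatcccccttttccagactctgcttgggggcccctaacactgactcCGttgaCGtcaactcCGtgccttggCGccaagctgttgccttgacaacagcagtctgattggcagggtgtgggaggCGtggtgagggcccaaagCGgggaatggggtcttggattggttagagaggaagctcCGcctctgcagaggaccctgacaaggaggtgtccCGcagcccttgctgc
Nnat, chr2:157559828-157560077, plus strand: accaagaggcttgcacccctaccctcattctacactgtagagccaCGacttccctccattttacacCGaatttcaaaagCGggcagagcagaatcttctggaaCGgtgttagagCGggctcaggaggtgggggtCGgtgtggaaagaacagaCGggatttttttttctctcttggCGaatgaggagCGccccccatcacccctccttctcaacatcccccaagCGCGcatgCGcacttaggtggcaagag
Grb10, chr11:12037421-12037670, minus strand: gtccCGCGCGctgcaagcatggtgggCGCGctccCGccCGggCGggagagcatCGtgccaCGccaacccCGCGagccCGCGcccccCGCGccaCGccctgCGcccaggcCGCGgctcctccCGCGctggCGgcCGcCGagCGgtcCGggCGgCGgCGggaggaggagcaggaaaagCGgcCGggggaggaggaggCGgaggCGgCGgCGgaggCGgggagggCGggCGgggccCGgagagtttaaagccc
Plagl1, chr10:13090582-13090831, plus strand: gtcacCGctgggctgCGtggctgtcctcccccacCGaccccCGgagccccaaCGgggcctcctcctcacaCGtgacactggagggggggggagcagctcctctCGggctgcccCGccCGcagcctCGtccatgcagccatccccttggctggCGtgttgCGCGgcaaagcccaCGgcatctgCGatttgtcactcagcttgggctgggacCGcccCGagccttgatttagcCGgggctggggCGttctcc
Peg3 had 8 CG and Nnat 12, which 43.0% and 33.5% of the 32851 promoters of this length reached or exceeded; the median promoter had 6. Grb10 had 40, reached by 1.31%, and Plagl1 19, reached by 19.7%. A second Grb10 promoter in the table, not shown, had 8 CG (reached by 43.0%), and the 4 listed for Igf2 had 1 to 22.

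Beyond the 10, the genes whose level followed each of them most closely were ranked by Spearman's rho over 17 libraries among 13342 genes, as a description with no test. The gene most like Peg3 was Zim1, its maternally expressed neighbour, which lies 7441 bases away on chromosome 7 (rho 0.90, and 0.95 in the 13 libraries without the 4 named above). Zim1 was at 0.52, 3.13, 0.43, 0.29 and 4.13 CPM in the controls, so it was high in the controls that were high in Peg3, and at 0.31 to 2.05 CPM in let-7d and 1.01 to 2.95 CPM in let-7e. Plce1 and Dst came next (rho 0.88 and 0.86). Ndn was most like Vim, an intermediate filament gene (rho 0.91, and 0.98 in the 13 libraries), Flot1 and the collagen gene Col6a2 (rho 0.91 each). Nnat was most like Gsn, which encodes the actin-severing gelsolin (rho 0.91, and 0.87 in the 13 libraries), then Sctr and Dock11 (rho 0.90 each). Cdkn1c was most like Foxo4, a forkhead transcription factor (rho 0.93, and 0.95 in the 13 libraries), Lims2 and Traip. Grb10 was most like Ccdc93 (rho 0.86 in both sets) and Plagl1 most like Fmr1 (rho 0.87, and 0.86 in the 13 libraries). For the rest the closest genes were Lrrc75a for Igf2 (rho 0.89), Rab3gap1 for Igf2r (0.85), Ggh for Sgce (0.85) and Stard10 for H19 (0.83), with rho of 0.91, 0.86, 0.76 and 0.69 in the 13 libraries.

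**Figure D4:**
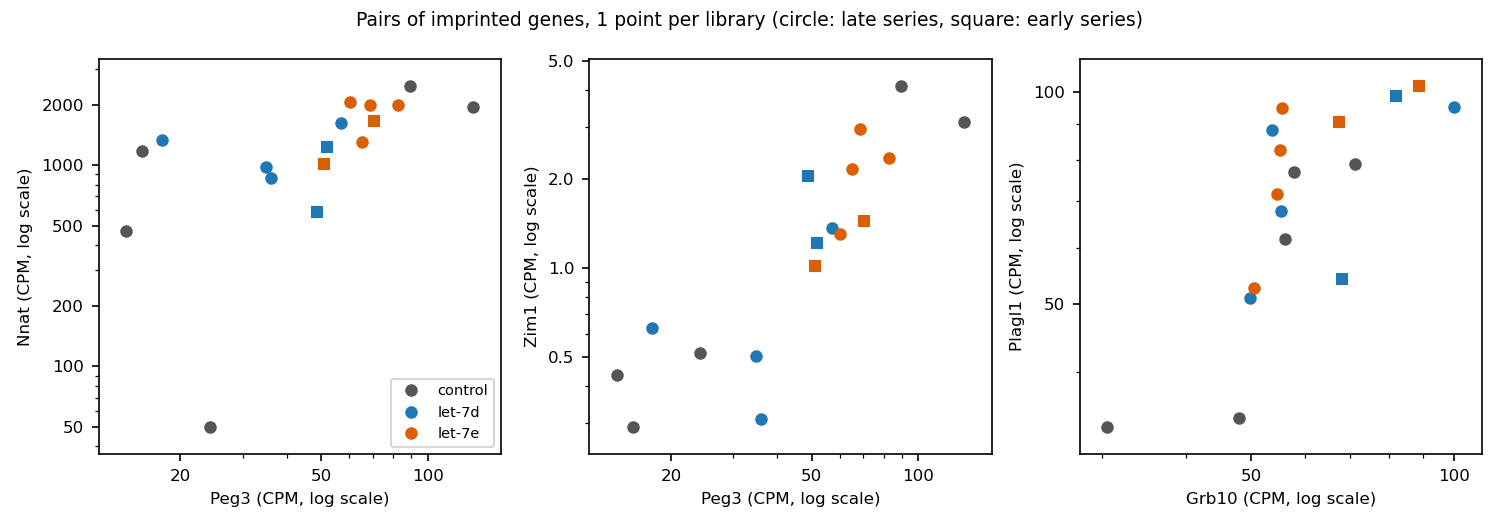
Pairs of imprinted genes in the 17 libraries, both axes in CPM on log scales: Peg3 against Nnat, Peg3 against its neighbour Zim1, and Grb10 against Plagl1. Points rise together in each panel (rho 0.80, 0.90 and 0.75), with control 1 far below the others in Nnat (50.1 CPM).

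Other imprinted genes, 39 of 48 listed being measured, did not move to one side. Against control 19 were higher and 20 lower in let-7d (median log2 fold change -0.00), and 22 higher and 17 lower in let-7e (median 0.03); in let-7e against let-7d 21 were higher and 18 lower (median 0.01). None passed the adjusted threshold, and at an unadjusted p under 0.05 there were 4, 6 and 2 of 39 in the order of these comparisons, beside 10.2%, 10.5% and 6.67% of all genes; the medians of all genes were -0.04, -0.04 and -0.01. Tfpi2, a maternally expressed protease inhibitor, was at 1.91 ± 1.31 CPM in control (SD, n = 5), 4.21 ± 1.42 in let-7d (SD, n = 6) and 3.91 ± 1.21 in let-7e (SD, n = 6), with estimates of 1.05 and 0.96 against control (adjusted p = 0.461 and 0.412, edgeR). Nap1l5, a paternally expressed nucleosome assembly protein, was at 3.14 ± 1.15 CPM in control (SD, n = 5) and 1.78 ± 0.49 in let-7e (SD, n = 6), an estimate of -0.89 (adjusted p = 0.356, edgeR). The estimates of Rasgrf1 and Zdbf2 each rest on 1 control. Rasgrf1 was at 9.87 CPM in control 3, and its estimates of -1.74 for let-7d and -1.32 for let-7e were -0.75 and -0.33 without that library. Zdbf2 was at 11.9 CPM in control 6, and its estimates of -2.42 for let-7d and -3.26 for let-7e were -0.17 and -1.01 without it. The others named by the same rule were Slc38a4, Commd1, Zrsr1, Slc22a3, Blcap, Peg13 and Mkrn3. Their log2 fold changes lay between 0.21 and 1.62 where higher and between -1.96 and -0.35 where lower, with Slc38a4 at both ends; without let-7d 1, where it was at 21.3 CPM, its values were 1.14 and -0.90. The mesoderm-specific Mest, which tracks fat expansion, was variable too, from 37.7 CPM in control 3 to 396 CPM in let-7e 5, with an estimate of 0.67 for let-7e against control (SE 0.49, adjusted p = 0.646, edgeR).

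In the insulin-like growth factor pathway, 15 of 16 listed genes were measured and none passed the adjusted threshold. Against control 7 were higher and 8 lower in let-7d (median -0.03) and 9 higher and 6 lower in let-7e (median 0.11); in let-7e against let-7d 5 were higher and 10 lower (median -0.09). At an unadjusted p under 0.05 there were 4 of 15 genes in each comparison, beside the same shares and medians of all genes. Of the binding proteins, Igfbp5 was at 227 ± 130 CPM in control (SD, n = 5) and 384 ± 66.2 in let-7d (SD, n = 6), an estimate of 0.67 (adjusted p = 0.473, edgeR); control 2 alone reached 451 CPM, and the estimate was 1.08 without it. Igfbp4 and Igfals, which holds IGF complexes in the circulation, had estimates of 0.62 and 0.61 in the same comparison. Igfbp3 was at 46.1 ± 8.57 CPM in let-7d and 32.2 ± 5.52 in let-7e (SD, n = 6 each), an estimate of -0.52 (unadjusted p = 0.00531, adjusted p = 0.70, edgeR).

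Of the substrates that carry the signal from the receptors, Irs2 had the smallest p of the pathway. It ran from 39.1 to 100.1 CPM in let-7d (median 80.2) and from 70.3 to 165 CPM in let-7e (median 133), with overlap. The let-7e against let-7d estimate was 0.67 (SE 0.19, unadjusted p = 0.00294, adjusted p = 0.70, edgeR), and against control let-7d stood at -0.38. Irs1 and Igf2bp2, an RNA-binding protein of Igf2 messenger RNA, were higher in let-7e than in let-7d by 0.43 and 0.57 on the log2 scale. The receptors Insr and Igf1r had estimates of -0.14 (let-7d against control) and -0.42 (let-7e against let-7d), the latter -0.12 without let-7d 1. Pappa, a protease of IGF-binding proteins, was at 9.47 CPM in control 3, and its estimates of -2.08 and -2.18 against control were -0.74 and -0.85 without it. Igf2bp3 was at 11.4 CPM in control 6 and below 0.3 CPM in the other controls, and its let-7e estimate of -2.45 turned to 1.12 without that library.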

How the data were processed

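Counts are whole-number reads per Ensembl gene as deposited. Per the submitters' processing notes the authors used STAR and GRCm38.p6; versions, the counting tool, its strand setting and the threshold of their CPM filter are not given in the sources used here. A second deposited table, in RPKM, was not used. The count table held 17 libraries in 3 groups, by the labels. Of its 16452 identifiers, 16438 matched GENCODE M21 without the version suffix.

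The tests ran in edgeR 4.0.16, DESeq2 1.42.0 and limma 3.58.1 under R 4.3.3, and the rest in Python 3.11.15. TMM scaling was used; filterByExpr removed 0 genes. The model, by quasi-likelihood in edgeR, took all libraries with group and series as terms (common biological coefficient of variation 0.36), two-sided, adjusted over 16452 genes. Log2 CPM used a prior count of 2. The pipeline was tested on simulated data. No 2 libraries were duplicates (closest pair let-7d 3 and let-7d 6, chi-square per degree of freedom 14.6). Precision depended on the spread between libraries as well as on the counts, which were 12717365 to 28972306 per library.

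Named genes were the 10, genes overlapping them, per comparison and direction the 3 of smallest unadjusted p in the lists of other imprinted and IGF pathway genes (mean at least 1 CPM), and the 3 most like each member. Mest and Peg10 were added after their values were seen. The members and lists were chosen with earlier results of these data known. As alternatives the fits were repeated with DESeq2 and its size factors, with limma-voom, on genes over 5 CPM, with the replicate number as a block, with no series term, on late libraries only, without 4 libraries, leaving out single libraries, and at a threshold of 0.1.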

Additional observations from a re-analysis of the deposited data

Results flagged for a closer look

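A library was looked at again where its gap to the nearest other library of its group was a large part of the group's range (Dixon's test at the 95% level). This marked 13 of the 105 groups examined, and none involved the 10 imprinted genes themselves. The test marks about 1 in 20 among normal values of genes not chosen from the data. Most genes beyond the 10 were named for their small p in these same libraries, so the 13 cannot be set against that rate. Among other imprinted genes, let-7d 1 was the highest of its group for Tfpi2 (6.943 CPM, the others up to 4.18) and for Slc38a4 (21.33 CPM, the others up to 6.62), and the lowest for Peg13 (60.79 CPM, the others from 78.8). Commd1 was at 45.43 CPM in let-7d 4 (the others up to 32.5). Control 3 had 9.865 CPM of Rasgrf1 (the others up to 2.62), control 6 had 11.9 CPM of Zdbf2 (the others up to 1.10), and control 4 had 1.015 CPM of Mkrn3 (the others from 1.88).

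In the insulin-like growth factor pathway, Igfbp5 was high in control 2 (450.7 CPM, the others up to 215) and low in let-7e 4 (200.2 CPM, the others from 384). Pappa was at 9.465 CPM in control 3 (the others up to 2.41) and Igf2bp3 at 11.37 CPM in control 6 (the others up to 0.29). Insr was at 128.9 CPM in let-7d 2 (the others up to 108), and Igf1r at 83.02 CPM in let-7d 1 (the others up to 32.5). Of these 13 values, 8 came from control 3, control 6 or let-7d 1, which are among the 4 libraries with transcripts of neighbouring organs or epithelium.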

How the results depend on the processing

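Over 744 alternatives of the 30 fold changes of the imprinted genes, 715 kept their direction and 29 turned, in 11 of the 30 fold changes. The 744 include fits that left out a library of the group outside the comparison, a weaker check of that comparison. None passed an adjusted p of 0.05 (smallest 0.126). For let-7d against control, limma-voom turned H19 to 0.11, Peg3 to 0.32, Cdkn1c to 0.017 and Nnat to 0.80. Igf2 turned to -0.0061 with no series term. Without the 4 libraries Igf2 was -0.0048, Cdkn1c 0.058, Nnat 0.22 and Zdbf2 0.50. For let-7e against control, Cdkn1c was -0.056 with no series term, and Igf2bp3 was 0.44 with limma-voom and 1.07 without the 4 libraries. For let-7e against let-7d, Plagl1 was -0.11 without the 4 libraries. The causes were not tested.

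With each library left out in turn, the let-7d estimates against control ran from -0.73 to 0.13 for Peg3, -0.26 to 0.094 for Cdkn1c, -0.0024 to 0.39 for Grb10 and -0.32 to 0.41 for Nnat. For let-7e against control they ran from -0.026 to 0.84 for Peg3, -0.031 to 0.32 for Cdkn1c, -0.039 to 0.23 for Grb10 and -2.76 to 1.12 for Igf2bp3, and for let-7e against let-7d from -0.24 to 0.040 for Grb10 and -0.0058 to 0.21 for Plagl1. The count of genes at an unadjusted p under 0.05 ran from 1065 (without let-7d 3) to 2713 (without control 2) for let-7d against control, 1194 to 2739 (without control 2) for let-7e against control, and 625 (without let-7d 1) to 1568 for let-7e against let-7d, where it was 711 without let-7e 2.

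Genes past the adjusted threshold numbered 10, 15 and 14 with DESeq2 in the order of the comparisons, against 0 with edgeR. The count at an unadjusted p under 0.05 was 1069 and 993 for let-7d and let-7e against control with the filter at 5 CPM, which tests fewer genes, and 1128 for let-7e against control without the 4 libraries. Pairs of imprinted genes past the threshold numbered 4 in the late libraries and 1 without the 4 libraries, both with fewer samples.

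With the replicate number as a block, Peg3 turned to 0.50 and Nnat to 0.012 for let-7d against control, and no gene passed in any comparison. Over 16 same-numbered pairs the correlation of deviations from the group mean ran from -0.38 to 0.53, and 6 were over 0.1. Of 17 libraries, 4 correlated best with their own number. Whether the numbers pair the samples stays unsettled, because differently numbered pairs were not summarised and series was not removed. The highest value, of let-7d 1 with let-7e 1, joins libraries of the early series. Depth limits H19 and Igf2 most, at 1 to 40 and 2 to 22 reads per library.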
